A study of Rattus norvegicus with 6 samples.

Results

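Transcripts of 8 genes for secreted proteins of the acute-phase and mucosal defence type were followed across control and GnRH-treated rat pituitary cultures: Lcn2, Reg3a, Reg3b, Reg3g, C3, Cp, A2m and Hp. They were taken as all probe sets whose array annotation gives 1 of these symbols and no other, which found all 8 of them among 14217 named genes, on 10 of 31042 probe sets (Cp has 3, the others 1 each). The set was selected on measured values: the GnRH against control differences of these same arrays were known when it was chosen, and Lcn2 and Reg3a were among the few named genes that passed the test with GnRH lower. The differences of the 8 genes between the groups are therefore given as a description, with no test, and support nothing by themselves.

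The arrays came from organ cultures of rat pituitary, 3 labelled control and 3 labelled as given 10 nM GnRH, the hypothalamic peptide that drives the gonadotropin-secreting cells of this gland. No agent is named for the controls, and the sources used here give no strain, sex, age, culture conditions or length of exposure. No label says that the 3 samples of a group came from separate cultures or animals, so every error and p-value rests on sample-to-sample spread that may be technical. Values are log2 intensities of the deposited array table, in which a step of 1 is a doubling, and a difference is the GnRH mean minus the control mean. In whole-organ RNA, fewer cells of a type and less RNA per cell cannot be told apart.

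The acute-phase response is a change in secreted proteins that follows infection or injury. It is best known from the liver, but epithelia and glia make several of the same proteins. Interleukin-6 type cytokines act on it through STAT3, interleukin-1 and tumour necrosis factor through NF-kappaB, and the C/EBP factors Cebpb and Cebpd bind many of the target promoters. In the pituitary, the folliculostellate cells, a glia-like network between the hormone cells, are a known source of interleukin-6. Lipocalin 2 binds siderophores and so keeps iron from bacteria, the REG3 proteins are C-type lectins secreted at mucosal surfaces and by injured pancreas, C3 is the protein on which all complement pathways meet, ceruloplasmin (Cp) carries copper and oxidises iron, alpha-2-macroglobulin (A2m) traps proteases, and haptoglobin (Hp) binds free haemoglobin.

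The arrays themselves set limits on what follows. Their medians lay between 6.01 and 6.07, and the pituitary hormone transcripts Gh1 (14.09 to 14.25) and Prl (13.83 to 14.21) were among the brightest probe sets in each array. The brightest probe set of Xist, the RNA that silences an X chromosome in female cells, was at 3.91 in control 1 and 3.66 in control 2, whereas control 3 reached 9.77 and the GnRH arrays 9.73, 9.16 and 9.49. Low Xist thus went with controls 1 and 2 alone, and each member is given below also against control 3 alone and without it. Its part in the results was not tested beyond these values.

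The promoters of the 3 genes whose arrays separated by group (Lcn2, Reg3a and C3), and of the REG3 genes next to Reg3a, are shown because the response is known to act through DNA motifs near the start of such genes. RefSeq's GRCr8 promoter table held 6 of the 8 genes (A2m and Hp were not matched), with 2 overlapping windows for Reg3a, of which the first is used. Each window ran from 250 bases before the start to 50 bases after it, and the 250 bases before the start are printed 5′ to 3′ on the strand of the gene. Capitals mark matches, on either strand, to the C/EBP motif TTGCNNAA, the STAT motif TTCNNNGAA, the TATA motif TATAAA or the kappaB consensus. The windows are Lcn2 at chr3:36081781-36082030 (minus strand), Reg3a at chr4:112430147-112430396 (plus), Reg3b at chr4:112419526-112419775 (plus), Reg3g at chr4:112484739-112484988 (minus) and C3 at chr9:2201340-2201589 (minus).
Lcn2: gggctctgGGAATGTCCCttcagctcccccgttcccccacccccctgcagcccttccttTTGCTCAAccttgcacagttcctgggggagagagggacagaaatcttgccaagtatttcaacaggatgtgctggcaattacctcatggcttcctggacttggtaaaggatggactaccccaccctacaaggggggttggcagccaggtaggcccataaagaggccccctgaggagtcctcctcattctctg
Reg3a: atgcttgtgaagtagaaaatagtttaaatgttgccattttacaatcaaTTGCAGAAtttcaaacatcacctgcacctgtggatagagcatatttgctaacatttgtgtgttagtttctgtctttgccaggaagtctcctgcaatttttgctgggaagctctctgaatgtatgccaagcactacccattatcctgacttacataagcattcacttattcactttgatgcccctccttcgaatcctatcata
Reg3b: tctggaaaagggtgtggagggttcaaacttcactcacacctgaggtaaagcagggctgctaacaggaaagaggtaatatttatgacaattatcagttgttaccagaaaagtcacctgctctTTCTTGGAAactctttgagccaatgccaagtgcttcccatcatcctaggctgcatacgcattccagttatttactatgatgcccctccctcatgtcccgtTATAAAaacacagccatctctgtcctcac
Reg3g: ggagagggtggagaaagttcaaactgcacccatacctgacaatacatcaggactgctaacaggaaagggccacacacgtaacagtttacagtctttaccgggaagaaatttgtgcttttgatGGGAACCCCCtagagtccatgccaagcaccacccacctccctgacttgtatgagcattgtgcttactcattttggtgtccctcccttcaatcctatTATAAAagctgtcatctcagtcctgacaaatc
C3: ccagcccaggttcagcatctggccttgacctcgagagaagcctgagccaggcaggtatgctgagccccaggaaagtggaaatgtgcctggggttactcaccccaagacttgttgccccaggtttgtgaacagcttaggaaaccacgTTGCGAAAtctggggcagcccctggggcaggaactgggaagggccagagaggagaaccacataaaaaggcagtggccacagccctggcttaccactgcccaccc

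A C/EBP match stood in the windows of all 3 genes whose groups separated, as TTGCTCAA in Lcn2 at -191 to -184, TTGCAGAA in Reg3a at -202 to -195 and TTGCGAAA in C3 at -104 to -97, counted from the start. It also stood in the window of Cp, whose groups overlapped, and 10.6% of all 33469 promoters of this length hold one. The windows of Reg3b and Reg3g had no such match. Among the 6 members with a window, Reg3b had the sole STAT match, TTCTTGGAA at -129 to -121 (8.87% of all promoters hold one). A2m and Hp could not be searched. A kappaB match lay at -242 to -233 in Lcn2 and at -128 to -119 in Reg3g (7.51% of all promoters). TATAAA lay just before the start of Reg3b (-29 to -24), Reg3g (-32 to -27) and Cp (-27 to -22), with 14.2% of all promoters holding one. These are matches of letters and show neither binding nor a cause. Aligned end to end, the promoters of the REG3 genes shared 69.4% to 73.3% of their aligned bases, against 52.9% to 64.4% for the other pairs of member promoters. Gap bases, which these shares leave out, numbered 24 to 80 in the REG3 pairs and 52 to 110 in the other pairs. In GRCr8 the REG genes are neighbours on chromosome 4, in the order Reg3b, Reg3a, Reg1a and Reg3g.

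Lcn2 was lower in every GnRH array than in every control. Its probe set 1387011_at had 9.40, 9.67 and 9.54 in controls 1 to 3 and 9.005, 8.63 and 8.63 in GnRH arrays 1 to 3. The groups did not overlap, with the lowest control 0.40 above the highest GnRH array. The difference was -0.78 ± 0.12 (SE, n = 3 a group), which is 41.9% less transcript. It hardly depended on control 3, which lay 0.0094 from the mean of the other controls: the difference was -0.79 against control 3 alone and -0.78 without it. Of all probe sets, 27 had a lower difference than Lcn2.

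Among the REG3 lectins, Reg3a differed in the same way and its neighbours Reg3b and Reg3g did not separate the groups. Reg3a (1387930_at) had 8.35, 7.90 and 8.01 in controls and 7.44, 7.08 and 7.26 with GnRH. All GnRH arrays lay below all controls by at least 0.46. The difference of -0.82 ± 0.13 (SE) is 43.5% less transcript, and it was -0.75 against control 3 alone and -0.86 without it.

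Reg3b (1368238_at) had 9.72, 9.67 and 10.41 in controls and 9.75, 9.70 and 10.09 with GnRH. Control 3 was the highest of the 6, GnRH 3 the next, and the other 4 arrays lay between 9.67 and 9.75, so the groups overlapped almost completely. The difference of -0.083 ± 0.19 (SE) turned with control 3, to 0.16 without it and -0.57 against it alone. Reg3b had one of the widest spreads within groups on the array, at percentile 98.1 of all probe sets.

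Reg3g (1370631_at) was dim, between percentiles 24.3 and 36.0 of the probe sets of each array. It had 5.52, 5.07 and 5.39 in controls and 4.92, 5.19 and 4.88 with GnRH. Control 2 lay below GnRH 2, so the groups overlapped, and the difference was -0.33 ± 0.13 (SE). The REG3 genes are close in sequence, and how far a probe set of one also binds transcript of another was not tested. Reg1a, which lies between Reg3a and Reg3g and encodes a related secreted lectin, had 6.61, 6.56 and 6.51 in controls and 6.32, 6.17 and 6.29 with GnRH. Its groups did not overlap, but the difference of -0.30 ± 0.09 (SE) did not pass (limma, Benjamini-Hochberg adjusted p = 0.206). Extl3, reported as a receptor for REG proteins, had a difference of -0.044 (limma adjusted p = 0.866).

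C3 was nearly constant in the controls and spread out with GnRH. Its probe set 1368000_at had 7.02, 7.02 and 7.05 in controls, against 6.82, 6.52 and 6.05 with GnRH. All GnRH arrays were below all controls, by at least 0.20. The SD was 0.014 in controls and 0.39 with GnRH (n = 3 each), and the difference of -0.57 ± 0.16 (SE) corresponds to 32.7% less transcript. Much of its size came from GnRH 3, without which it was -0.36, while it was -0.59 against control 3 alone.

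Ceruloplasmin differed little on any of its 3 probe sets, and they disagreed on details. On 1368418_a_at it had 8.74, 8.78 and 8.80 in controls and 8.63, 8.55 and 8.81 with GnRH, a difference of -0.11 ± 0.09 (SE). On 1368419_at it had 7.84, 7.89 and 8.22 against 8.01, 7.81 and 8.08, a difference of -0.019 ± 0.12. On 1368420_at it had 7.12, 7.03 and 6.93 against 6.94, 6.72 and 6.88, a difference of -0.18 ± 0.10. The groups overlapped on each probe set, on the last by 0.0036. Control 3 was the highest control on 1368419_at, by 0.36 above the mean of the others, and the lowest on 1368420_at. The difference on 1368419_at was 0.10 without control 3, 0.060 without GnRH 2 and -0.26 against control 3 alone.

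A2m and Hp, which bind proteases and haemoglobin in plasma, differed little between the group means. A2m (1367794_at) had 8.99, 9.003 and 8.99 in controls and 8.997, 8.72 and 9.19 with GnRH, a difference of -0.024 ± 0.12 (SE) that was 0.10 without GnRH 2. The GnRH arrays lay on both sides of the tight controls. Hp (1370148_at) had 6.48, 6.45 and 6.45 in controls and 6.60, 6.45 and 6.40 with GnRH, a difference of 0.025 ± 0.09 that was -0.032 without GnRH 1. It was the sole member with a mean above the controls.

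**Figure D1:**
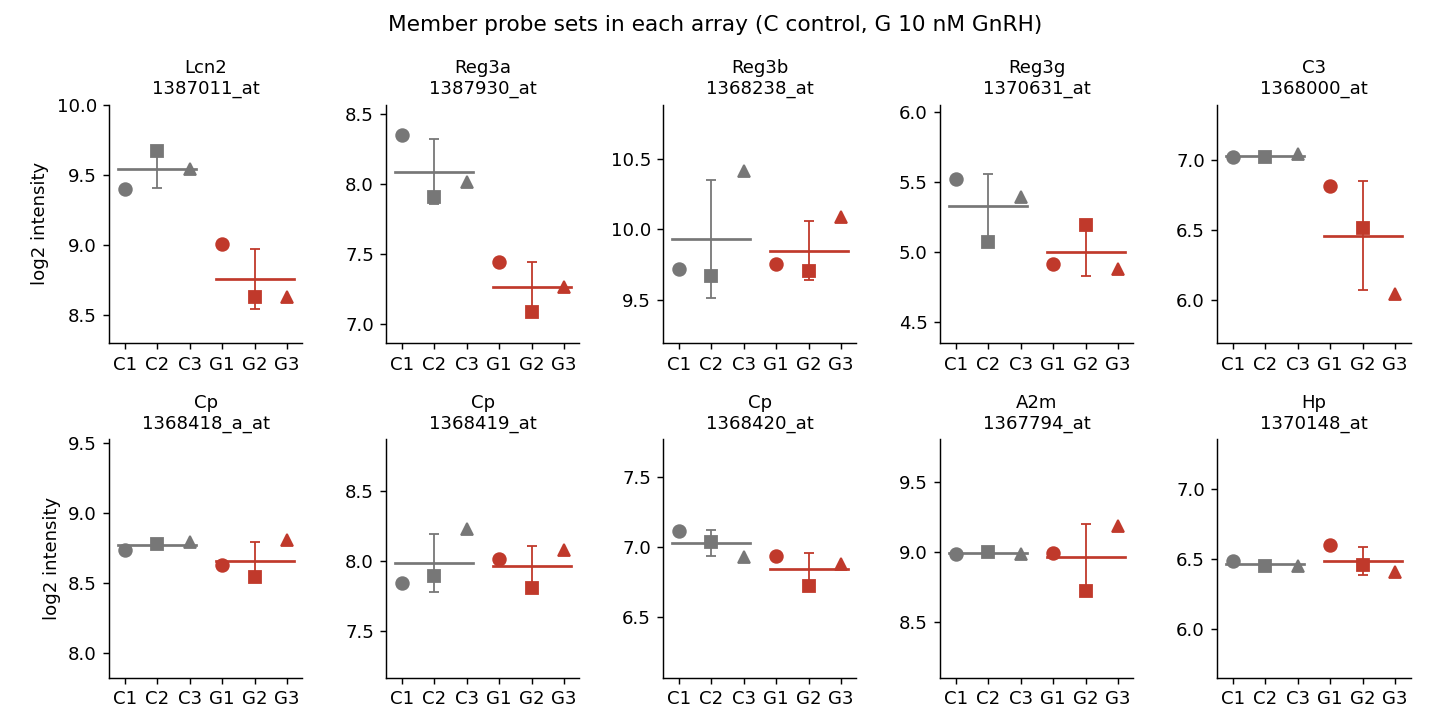
Log2 intensity (y axis, the same span of 1.7 in each panel) of the 10 member probe sets in each array, with controls C1 to C3 in grey and 10 nM GnRH arrays G1 to G3 in red; lines are group means and bars the SD of 3 arrays. Groups separate for Lcn2, Reg3a and C3 and overlap for the rest, and control 3 stands above the other controls in Reg3b.

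Across the 10 member probe sets, the mean was lower with GnRH in 9, where 57.4% of all probe sets were lower. The groups did not overlap in 3 (Lcn2, Reg3a and C3), all lower with GnRH, while 16.7% of all probe sets did not overlap in either direction and 9.62% did so with GnRH lower. The median difference of the members was -0.15, beside -0.025 over all probe sets. By limma with Benjamini-Hochberg adjustment 0.464% of all probe sets passed an adjusted p under 0.05, and 0.0419%, or 13 probe sets, passed with GnRH lower. Lcn2 and Reg3a are 2 of those 13, and since the genes were chosen with this contrast known, nothing is read from that count. Lcn2 was not among the probe sets past the threshold without control 2, GnRH 2 or GnRH 3, and Reg3a was not without control 1, control 2 or any 1 of the GnRH arrays.

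Of the members, 6 probe sets stayed below 0 in each of 14 alternative settings. Lcn2 ranged from -0.91 to -0.72, Reg3a from -0.91 to -0.69 and C3 from -0.75 to -0.36. Reg3g ranged from -0.46 to -0.20, and the Cp probe sets 1368418_a_at from -0.19 to -0.055 and 1368420_at from -0.23 to -0.089. Reg3b (-0.57 to 0.16), the Cp probe set 1368419_at (-0.26 to 0.10), A2m (-0.13 to 0.10) and Hp (-0.032 to 0.066) took both signs.

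**Figure D2:**
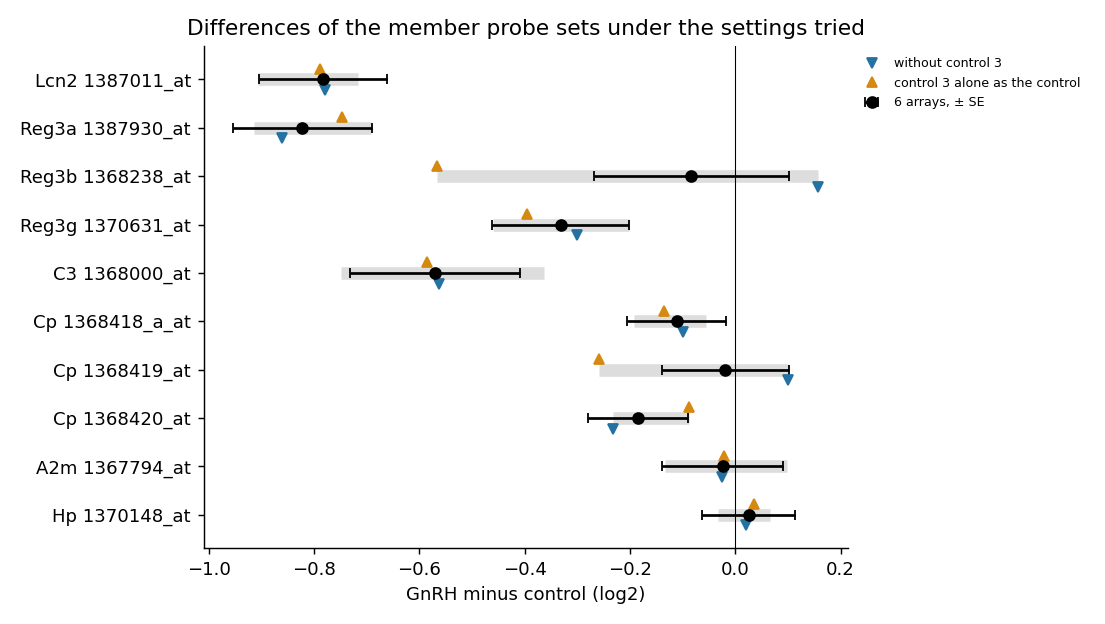
Difference between GnRH and control means (x axis, log2) of each member probe set: black points with 6 arrays and their SE, blue triangles without control 3, orange triangles with control 3 as the sole control, and grey bars the range over the alternative settings and the 6 arrays. Lcn2, Reg3a, Reg3g, C3 and 2 of the Cp probe sets stay below 0 throughout, whereas the triangles of Reg3b lie at -0.57 and 0.16.

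The members also differed in how they varied within groups; this is a description as well, since the test that singled out Lcn2 and Reg3a also reads that spread. The SD of the GnRH arrays was above that of the controls in 6 of 10 member probe sets (C3, A2m, Hp, Lcn2 and, of Cp, 1368418_a_at and 1368420_at), where this held for 35.6% of all probe sets. For A2m it was 0.23 against 0.0076 and for Hp 0.10 against 0.020. GnRH 2 was the lowest GnRH array in 7 of the 10, beside 35.5% of all probe sets, and GnRH 1 in 0, beside 29.5%. The probe sets of 1 gene share their transcript, so these are not 10 independent counts. Control 3 was the highest control in 4, beside 33.2% of all probe sets, and the lowest in 1.

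By profile over the 6 arrays, each centred on its own mean, the named genes most like Lcn2 were Frmd6, a membrane-cytoskeleton scaffold, at a root mean square distance of 0.096, Plau, the urokinase-type plasminogen activator, at 0.10 and 0.11 on its 2 probe sets, Msmo1, a sterol-synthesis oxidase, at 0.14, and Pmp22, a membrane protein known from myelin, at 0.15. Those most like Reg3a were Plau (0.14), Pmp22 (0.17), Serpina3n (0.18), Obp3 (0.18), an odorant-binding lipocalin, and Frmd6 (0.18). Lcn2 lay 0.22 from Reg3a and 0.20 from C3. All of these profiles share the 6 arrays, and their likeness is largely the step between the groups. Obp3 was dim, with values of 2.67 to 3.40.

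**Figure D3:**
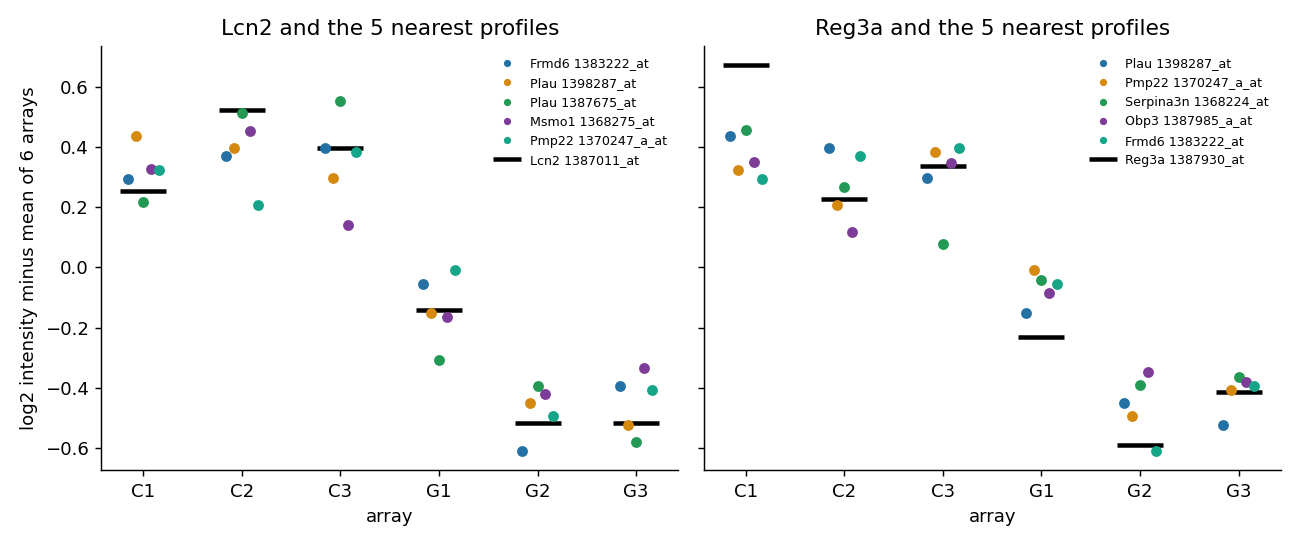
Log2 intensity minus the mean of the 6 arrays (y axis) in controls C1 to C3 and GnRH arrays G1 to G3 for Lcn2 (left) and Reg3a (right), drawn as black dashes, with their 5 nearest probe sets as coloured points. In both panels the controls lie above 0 and the GnRH arrays at or below 0.

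Other genes of the pathway, in 5 lists, were tested in the same fit, and none passed. The lists were chosen with earlier results of these data known, so their counts are given as a description. Of 117 measured genes (147 listed), 0 had a limma adjusted p under 0.05, beside 0.605% of all 14217 genes. At an unadjusted p under 0.05 there were 21, 17 lower and 4 higher, or 17.9%, beside 13.2% of all genes (5.17% lower and 8.04% higher). The median difference was -0.04, beside -0.0089 over all genes, and 71 of 117 lay lower, or 60.7%, beside 52.4% of all genes. The count past the threshold depended on single arrays: without control 3 it was 7 (Clu, Fkbp5, Il6r, Serpina3n and Steap4 together with Cebpb and Nfkb2), when 7.44% of all probe sets passed, and without GnRH 3 it was 1 (Cebpb).

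Of 27 measured genes for other acute-phase and inflammation-induced secreted proteins, 0 passed in either direction, and 17 lay lower and 10 higher, with a median of -0.047. The lowest was Serpina3n, a protease inhibitor induced in reactive glia and in the liver, with 6.83, 6.64 and 6.45 in controls and 6.33, 5.98 and 6.01 with GnRH. Its groups did not overlap, with a difference of -0.53 ± 0.13 (SE; limma adjusted p = 0.119, and 0.0123 to 0.448 over the alternatives). Timp1, an inhibitor of matrix metalloproteinases, differed by -0.34 (limma adjusted p = 0.374), the fibrinogen alpha chain Fga by -0.29 (0.368) and the metallothionein Mt2A by -0.26 (0.368). The other probe set of Fga, at 3.54 to 3.75, showed almost no difference. Of the 27, 5 were below the first quartile of every array.

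Of 33 measured complement genes other than C3, 0 passed, 23 lay lower and 10 higher, and the median was -0.05. Cfi, the protease that inactivates C3b, had 5.30, 5.07 and 5.28 in controls and 4.69, 4.67 and 5.08 with GnRH (difference -0.41 ± 0.12, limma adjusted p = 0.226). GnRH 3 lay just above control 2, so its groups overlapped. Clusterin (Clu), a secreted chaperone and complement inhibitor, was bright and differed by -0.27 (limma adjusted p = 0.356), C6 of the membrane attack complex by -0.14 (0.610) and the lectin Mbl1 by -0.13 (0.626). On its other probe set Clu differed by -0.015.

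Among receptors, partners and metal-handling genes of the member proteins, 0 of 16 measured passed, with 11 lower, 5 higher and a median of -0.11. Slc22a17, reported as a receptor for lipocalin 2, had 7.56, 7.51 and 7.01 in controls and 8.001, 8.14 and 7.64 with GnRH, the opposite direction to Lcn2 (0.57 ± 0.16, limma adjusted p = 0.201). Control 3 was its lowest array. Hmox1, the enzyme that breaks down haem, had 10.48, 10.57 and 10.94 against 10.27, 9.79 and 10.26 (-0.55 ± 0.15, limma adjusted p = 0.187). Mmp9, the gelatinase to which lipocalin 2 binds in neutrophils, differed by -0.26 (limma adjusted p = 0.399) and Cd163, the scavenger receptor for haptoglobin with haemoglobin, by -0.18 (0.427). Both were dim, with Cd163 at 3.53 to 3.80, and on its other probe set Mmp9 differed by -0.046.

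The cytokines, receptors and factors that act on acute-phase genes were divided. Of 39 measured, 0 passed, 18 lay lower and 21 higher, and the median was 0.013. At an unadjusted limma p under 0.05, 7 were lower and 3 higher (Cebpb, Cebpd and Nfkb2), beside 5.17% and 8.04% of all genes. The groups did not overlap in 5 lower and 5 higher genes, beside 16.7% of all probe sets in either direction. Il6 differed by -0.40 (limma adjusted p = 0.336), Il1b by -0.30 (0.291) and Tnf by -0.010 (0.979), all named after their values were seen. Cebpb had 6.88, 7.07 and 6.84 in controls and 8.35, 8.94 and 7.51 with GnRH. All GnRH arrays were above all controls, and the difference of 1.34 ± 0.27 (SE) missed the threshold (limma adjusted p = 0.0705, and 0.0086 to 0.271 over the alternatives). Cebpd had 7.49, 7.88 and 7.27 against 8.32, 8.02 and 8.05 on its brightest probe set (0.59 ± 0.15, limma adjusted p = 0.141), with 0.69 and 0.047 on the other probe sets. The NF-kappaB subunit Nfkb2 differed by 0.47 ± 0.11 (limma adjusted p = 0.121) and the interleukin-6 receptor Il6r by -0.38 ± 0.12 (limma adjusted p = 0.226).

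**Figure D4:**
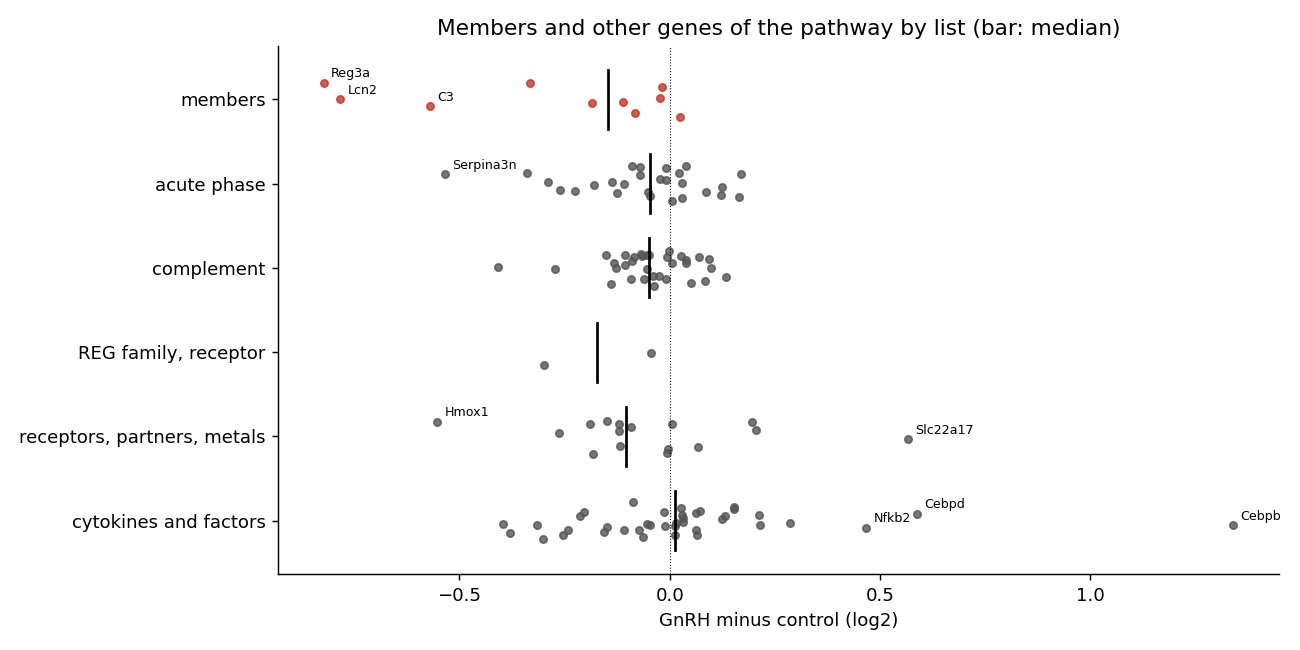
Difference between GnRH and control means (x axis, log2) of the member probe sets (red) and of the genes of 5 other lists (grey, 1 point per gene), with bars at the medians; vertical scatter has no meaning. The medians lie between -0.17 and 0.013, with Lcn2, Reg3a and C3 at the lower end and Cebpb at 1.34.

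Markers of cells that could carry these transcripts were read beside the members. The largest difference was in Gfap, the glial filament of astrocytes, pituicytes and some folliculostellate cells, named after its values were seen: it had 7.92, 8.97 and 8.94 in controls and 7.69, 6.47 and 5.76 with GnRH (-1.97 ± 0.42, limma adjusted p = 0.0835). Like C3, Gfap was lowest in GnRH 3 and highest of the GnRH arrays in GnRH 1. Of 9 measured markers of folliculostellate and stem-like cells 6 lay lower, beside 52.4% of all genes, and 0 passed. The summed linear intensity of the 9 was 2896 to 3310 in controls and 2222 to 2666 with GnRH. Without Gfap it was 2529 to 2820 against 2134 to 2459. The sums of this list did not overlap either way, but bright genes such as Lgals3 and Anxa1 weigh most in them. Gene by gene, the groups did not overlap in 2 of the 9 (Gfap and Lgals3, both lower), beside 9.62% of all probe sets. For Lgals3 this was a near tie, with the lowest control at 9.5193 and the highest GnRH array at 9.5179. S100b, the usual folliculostellate marker, had 7.94, 7.82 and 7.66 in controls against 7.86, 8.03 and 7.98 with GnRH. The part of these cells in the lower Lcn2, Reg3a and C3 was not tested.

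Epithelial markers were lower in 10 of 10, beside 52.4% of all genes, with 0 past the threshold. The groups did not overlap in 2 of them, both lower, beside 9.62% of all probe sets. Epithelial sums were 3866 to 4429 in controls against 3254 to 3979 with GnRH. Neutrophils, which store lipocalin 2, showed little signal: of 6 measured markers 3 were below the first quartile of every array, S100a8 at 2.82 to 2.99 and S100a9 at 3.28 to 3.70, with sums of 201 to 216 in controls and 179 to 202 with GnRH. The REG3-rich exocrine pancreas (10 measured, 3 below the first quartile, sums of 508 to 566 against 488 to 530) and hepatocytes (10 measured, 3 below it, 435 to 498 against 434 to 477) were also dim and overlapped. Sums also overlapped for macrophages and other leukocytes (1545 to 1750 against 1509 to 1818), endothelium (1061 to 1160 against 1150 to 1300), fibroblasts and pericytes (1278 to 1625 against 1216 to 1553) and meninges and choroid plexus (644 to 1002 against 559 to 809). Of 12 markers of macrophages and other leukocytes 11 lay lower, beside 52.4% of all genes, and the groups did not overlap in 2, both lower. None of the lists above had a gene past the threshold, nor did the other hormone cells (0 of 7, 36400 to 38520 against 38290 to 38910). Of 5 gonadotrope genes 2 passed (Gnrhr and Nr5a1, both higher), beside 0.605% of all genes. Gonadotrope sums were 12960 to 16580 against 14650 to 18130. The part of these cell types in the results was not tested.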

How the data were processed

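The deposited table holds array intensities on a linear scale for 31042 probe sets and 6 arrays, which the submitters' processing notes credit to RMA; the sources used here name neither software nor filters. It has 0 missing values and gives no detection calls, so absence cannot be judged for any probe set, and the number of arrays limits the precision. Samples were grouped by their titles. Symbols came from the array annotation (20826 probe sets with 1 symbol), updated by gene identifier through the RefSeq GRCr8 gene table. The authors' intensities were taken as log2 without a pseudocount and fitted in R 4.3.3 with limma 3.58.1 (a moderated linear model, 2-sided, no covariate, Benjamini-Hochberg over all probe sets, threshold 0.05); SEs come from that fit. The members, lists and tests were chosen with earlier results of these data known. Genes outside the members stand for their brightest probe set, and up to 4 per list with the smallest p-values are named, all past the threshold where there are any, and the 5 nearest profiles of Lcn2 and Reg3a. There were 5 pathway lists and 11 marker lists. On simulated data for 31042 probe sets, 26 of 50 changes of 0.58 and 49 of 50 changes of 1 were recovered, with 12 false among 187 calls. The simulated arrays were independent and equally variable, whereas fitted weights of the real arrays ran from 0.30 (control 3) to 2.72 (control 2). These rates may therefore not hold for the real arrays.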

Additional observations from a re-analysis of the deposited data

How the results depend on the processing

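The number of probe sets past the threshold was 144 with 6 arrays, 90 after quantile normalization, 93 after cyclic loess, 74 with 16 added before log2, 341 at an adjusted p under 0.10, 3020 with array weights and 265 with control 3 alone, which is then assumed to vary like the other arrays. Leaving out 1 array gave 20 to 2309. Of the 10 member probe sets, 2 were past the threshold, 1 after quantile normalization, 0 with 16 added and 0 with control 3 alone, and 0 to 2 without 1 array. Groups did not overlap in 3 members (16.7% of all probe sets), 6 with control 3 alone (56.9%) and 3 to 4 without 1 array (22.6% to 44.3%), and 7 to 10 members were lower without 1 array. Genes of the other lists past the threshold numbered 0, but 3 with the replicate block, 10 with array weights, 2 with control 3 alone, 1 with the smallest-p probe set of each gene (Bcl3, named after its values were seen) and 1 at an adjusted p under 0.10, with 0 to 7 without 1 array. Extl3 turned to 0.0066 with array weights. The cause was not tested. The labels do not say whether equal replicate numbers pair the samples, and 3 arrays a group cannot settle it. Deviations of same-numbered arrays correlated at 0.159, -0.0489 and 0.156 across probe sets, and those of the other pairs at -0.232 to 0.18. The replicate block gave 215 calls. Median centring, an intensity trend, robust variances and leaving out dim probe sets kept each of these counts within 1.5 times. No detection calls limit what can be said of dim probe sets such as Reg3g.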
